A study of Drosophila melanogaster with 18 samples.

Results

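A set of 183 Drosophila genes was chosen as CG-numbered genes that insulin raised within 4 h of wing disc culture. They were also genes that 20-hydroxyecdysone (20E) raised by less, or not at all. They were taken from 15602 identifiers measured by RNA sequencing, of which 7152 were protein-coding genes listed under a CG number. A CG number is the name a fly gene carries until it is named for a function or a phenotype. Members had a mean of at least 3 FPKM after 4 h in insulin, which 2935 CG-numbered genes reached. FPKM is a fragment count scaled to transcript length and library size. Members also had a log2 ratio of at least 0.8 for insulin over no hormone and under 0.5 for 20E over no hormone, each from group means with 1 FPKM added. The values at 4 h thus chose the members and are given as a description. The rule uses no value from the libraries at 9 h or of fresh discs, although it was written with earlier results of these data known.

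The wing disc is the pouch of larval epithelium from which the fly's wing develops. Discs were dissected 96 h after egg laying from larvae of the wild-type strain OregonR. Culture medium was Grace's, with fetal bovine serum at 5%, and held bovine insulin (5 µg/ml) for 9 h, insulin for 4 h, 20E (20 nM) for 9 h, 20E for 4 h, or no added hormone for 4 h. Fresh discs were frozen without culture ("uncultured"). Each of the 6 groups had 3 libraries, which the design text calls biological replicates. All cultured groups shared the serum, and there was no culture without hormone at 9 h. A change with culture time therefore cannot be told apart from a change with hormone at 9 h.

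Insulin signalling in flies runs through the insulin receptor, PI3 kinase and Akt to the TOR kinase and to the transcription factor foxo, and couples nutrition to growth. Growing cells spend much of their transcription on ribosome assembly and on metabolic enzymes. 20E is the steroid that times moulting and metamorphosis, and it reaches its targets through a nuclear receptor. Bovine insulin is a vertebrate protein used in fly tissue culture to drive the fly receptor.

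From steps in the low FPKM values, depth was estimated at 28.2 to 38.15 M fragments per library. For an effective length of 1 kb, 3 FPKM thus stands for about 84.6 fragments or more. Between 7847 and 8190 genes per library reached 1 FPKM. All 10 wing disc markers were above 1 FPKM in every library. Fat body markers summed to at most 1.06 FPKM and salivary gland markers to at most 0.641 FPKM, and of 6 haemocyte markers only crq averaged above 1 FPKM in any group. Myoblast markers, from the muscle precursors attached to the disc, summed to 82.2 to 88.9 FPKM in insulin and 83.9 to 87.1 FPKM in 20E at 9 h, and larval muscle markers to 42.5 to 46.8 FPKM in insulin and 26.3 to 49.0 FPKM in 20E. Gut markers summed to 10580 FPKM in uncultured replicate 2 and to 692.8 FPKM in no hormone replicate 1, against 1.59 to 215.6 FPKM elsewhere. Only these 2 are called the libraries high in gut markers below, and others also held some. In insulin at 4 h the sums were 1.81, 215.6 and 134.5 FPKM, and in insulin at 9 h 2.09, 39.2 and 3.27 FPKM. No member reached 2 times the next highest library of its group in uncultured replicate 2 or in no hormone replicate 1. Counts over all members against uncultured discs are given with and without these 2 libraries, and so are some of the named groups and genes whose calls changed. Within insulin at 9 h, replicate 2 was the lowest library for 124 of the 183 members. In bulk tissue, a lower number of cells of a type and less RNA per cell cannot be told apart.

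The median member was nearer to its level in fresh discs in insulin than in 20E or without hormone. It stood at 18.5 to 19.9 FPKM in the 3 libraries of insulin at 9 h and at 21.6 to 24.3 FPKM in insulin at 4 h. In 20E the median member stood at 11.1 to 11.8 FPKM at 9 h and at 10.4 to 11.6 FPKM at 4 h. It was at 8.93 to 10.1 FPKM without hormone and at 21.4 to 22.3 FPKM in uncultured discs. The order at 4 h was set by the choice of members. The levels at 9 h and in fresh discs were not. By the median member, every insulin library at 9 h lay above every 20E library at 9 h and below every uncultured one.

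**Figure D1:**
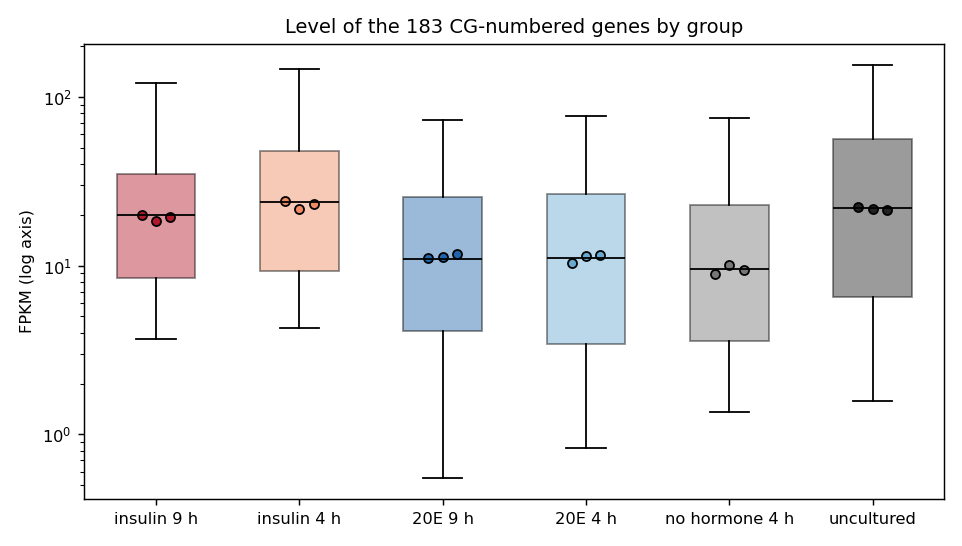
Distribution of the group mean FPKM (log axis) of the 183 members in each of 6 groups. Boxes span the quartiles with a line at the median, whiskers run to the 5th and 95th percentiles, and points are the median member in each of the 3 libraries, which lies between 18.5 and 19.9 FPKM for insulin at 9 h and between 11.1 and 11.8 FPKM for 20E at 9 h.

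By the rule's own measure, the log2 ratio of insulin over no hormone at 4 h ran between 0.80 and 2.99 with a median of 1.04. The ratio of 20E over no hormone ran between -3.11 and 0.49 with a median of 0.18, and it was below 0 in 49 members. The rule thus allowed a rise in 20E under its limit, which most members had, while a few were far lower in 20E. In log2(FPKM + 1), the median difference of 20E from no hormone at 4 h was 0.335 for the 20 members named below for ribosome biogenesis. For the 15 metabolic enzymes among the members it was -0.09.

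Just inside the limit on the insulin ratio were CG3678 (0.804), CG5885 (0.805) and CG4619 (0.806), and just outside it CG32344 (0.797), CG34228 (0.796) and CG11147 (0.793). At the limit on the 20E ratio, CG2918 (0.49), CG1542 (0.49) and CG3649 (0.48) were inside and CG12009 (0.52), CG12909 (0.53) and CG17104 (0.54) outside. At the level limit, CG4998 (3.06 FPKM in insulin at 4 h), CG17108 (3.36 FPKM) and CG3961 (3.48 FPKM) were inside, and CG15211 (2.92 FPKM), CG13023 (2.87 FPKM) and CG13731 (2.69 FPKM) outside. The limits fell within a continuous range of values.

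The question at 9 h was whether the members still differed between insulin and 20E in libraries that had not chosen them. Of 183 members, all of which passed the filter on low values, 137 were higher and 3 lower in insulin than in 20E at 9 h (limma, Benjamini-Hochberg adjusted p under 0.05), and 43 were not called. Over all 8524 tested genes, 26.4% were called higher and 26.6% lower. The median difference in log2(FPKM + 1) was 0.50 for the members and 0.01 for all tested genes. Of the 183 members, 53 were called higher by at least 2-fold on this scale, and of all 8524 tested genes 326. Every insulin library lay above every 20E library for 129 members and below for 4, and the ranges overlapped for 50. Over all tested genes, 29.1% lay above and 29.0% below in this way. Without the libraries high in gut markers the counts were 136 higher and 2 lower.

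Genes of the same table that the rule left out gave a background for this count. Among the 3300 other tested CG-numbered protein-coding genes, 833 were higher and 871 lower in insulin at 9 h, with a median difference of 0.01. Under the same limits, 168 protein-coding genes with other names had 128 higher and 4 lower, with a median of 0.57. CG-numbered genes picked by the mirror rule, with the limits for 20E and insulin at 4 h exchanged, had 0 higher and 33 lower of 38 tested, with a median of -1.16. Genes that both hormones raised at 4 h had 3 higher and 15 lower of 35. The named genes chosen by the same limits thus gave a share of calls close to that of the CG-numbered ones.

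A marker list moved with this comparison. The 5 tracheal markers, all above 1 FPKM in every library, summed to 838.1 to 1062 FPKM in insulin at 9 h, against 404.6 to 462.9 FPKM in 20E at 9 h and 704.2 to 775.0 FPKM in uncultured discs. The chitin-related genes Gasp, serp and verm made up most of these sums. For the other 2 genes of the list the order was the other way. At 9 h trh averaged 23.9 FPKM in insulin and 27.3 FPKM in 20E, and btl 3.30 FPKM in insulin and 3.77 FPKM in 20E. Wing disc markers summed to 585.0 to 630.8 FPKM in insulin and to 717.6 to 805.1 FPKM in 20E. The part of these differences in the members' values was not tested.

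The comparison with fresh discs asked how far the level in insulin at 9 h was from that in the uncultured disc. The members went both ways: 58 were higher and 87 lower in insulin at 9 h than in uncultured discs, and 38 were not called. Of all tested genes 34.4% were called higher and 33.2% lower, against 31.7% and 47.5% of members. Among the other CG-numbered protein-coding genes 39.8% were higher and 28.1% lower. Other sets picked at 4 h leaned the same way as the members. Named genes under the same limits had 29.2% higher and 50.6% lower, and the mirror rule 26.3% and 42.1%. Genes that both hormones raised had 22.9% and 40%. A share called lower above that of all tested genes was thus not particular to the members. The median difference of the members was -0.28, against 0.01 for all tested genes, and single members lay between -1.94 and 4.46. Every insulin library was above every uncultured library in 60 members and below in 92, where 36.6% of all tested genes were above and 34.8% below. Without the libraries high in gut markers, 48 members were called higher and 86 lower. In that setting 62 members lay above and 98 below, where 39.3% of all tested genes lay above and 37.0% below.

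In 20E at 9 h, 12 members were higher and 141 lower than in uncultured discs, where 36.9% of all tested genes were called higher and 34.4% lower. The median difference was -1.02, against 0.02 for all tested genes. Of the 183 members, 93 were called lower by at least 2-fold, and of all 8524 tested genes 591. Without the libraries high in gut markers the counts were 14 higher and 138 lower. This comparison and the one of insulin with fresh discs share the uncultured libraries, so their values are set side by side and no overlap is drawn from them. The difference between the hormones is the tested insulin minus 20E value given for each gene.

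**Figure D2:**
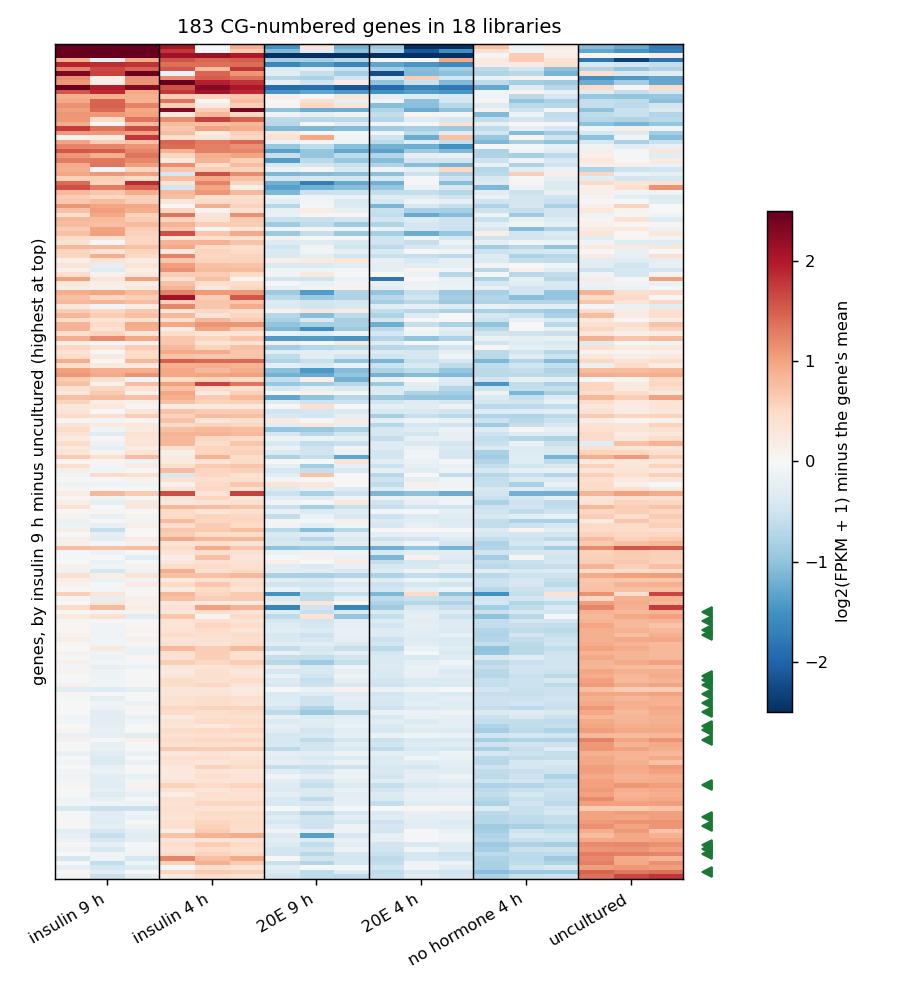
Heat map of log2(FPKM + 1) minus each gene's mean over 18 libraries, for the 183 members (rows) in 6 groups of 3 libraries (columns), sorted by insulin 9 h minus uncultured with the highest at the top. Green marks at the right edge show the 20 ribosome biogenesis members, all of which lie in the lower part, where values were lower in insulin at 9 h than in uncultured discs.

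The 58 members above and the 87 below fresh discs differed in level and in kind. The median member of the 58 stood at 13.8 FPKM in insulin at 9 h, 6.03 FPKM in 20E at 9 h, 5.32 FPKM without hormone and 5.38 FPKM in uncultured discs. For the 87 the median stood at 24.8 FPKM in insulin at 9 h, 20.7 FPKM in 20E at 9 h, 16.3 FPKM without hormone and 45.7 FPKM in uncultured discs. The groups were cut by these values, so the order against fresh discs is set by the cut. All 20 members with a ribosome biogenesis name were among the 87, and 0 among the 58.

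Names carried by the current RefSeq annotation gave 60 members a role or family, and 123 had none. These names were assigned to groups after the values had been seen, so the groups are described by counts. Beside each count stand the shares of all tested genes called higher and lower. They were 26.4% and 26.6% for insulin minus 20E at 9 h. Against uncultured discs they were 34.4% and 33.2% for insulin at 9 h and 36.9% and 34.4% for 20E at 9 h. Ribosome biogenesis was the largest, with 20 members. It held Nop10 (CG7637), a protein of the H/ACA particles that guide pseudouridylation of ribosomal RNA, and the RNA polymerase I subunits Polr1C (CG3756) and Polr1E (CG18600). It also held Noc1 (CG7839) and Noc2 (CG9246), known in yeast for the maturation of pre-ribosomes in the nucleolus, the RNA helicases pths (CG9253) and ais (CG5589), and relatives of yeast processing factors such as Rrp5 (CG5728) and Tsr1 (CG7338).

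Of these 20 genes, 16 were higher in insulin than in 20E at 9 h and 0 lower, with a median difference of 0.34 and a range of 0.16 to 0.67. All 20 were lower in insulin at 9 h than in uncultured discs, with a median of -1.02, and all 20 were lower in 20E at 9 h, with a median of -1.36. The difference between the hormones was thus a fraction of the distance of both from fresh discs. Their median level was 30.3 FPKM in insulin at 9 h, 44.5 FPKM in insulin at 4 h, 22.9 FPKM in 20E at 9 h, 23.8 FPKM in 20E at 4 h, 19.6 FPKM without hormone and 67.4 FPKM in uncultured discs.

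Nop10 had the highest mean level of all members. It stood at 274, 212 and 282 FPKM in insulin at 9 h, at 389, 363 and 384 FPKM in insulin at 4 h, at 207, 175 and 206 FPKM in 20E at 9 h and at 172, 198 and 206 FPKM in 20E at 4 h. Without hormone it stood at 152, 155 and 168 FPKM, and in uncultured discs at 531, 563 and 538 FPKM. The insulin libraries at 9 h lay above all libraries of 20E and below all uncultured ones. The difference was 0.38 ± 0.10 against 20E at 9 h (SE, limma adjusted p = 0.0045), a call that was lost when only these 2 groups were fitted, and -1.09 ± 0.10 against uncultured discs (limma adjusted p = 1.6e-07). Its transcript of 316 nt is the shortest among the 178 members matched in the Ensembl annotation, and its exons overlap those of CG12935 on the other strand.

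CG8939, listed as dSpb1 after a yeast methyltransferase of the large ribosomal subunit, was the member of this group farthest below fresh discs. It had 30.4, 24.4 and 28.9 FPKM in insulin at 9 h, 22.6, 18.6 and 23.2 FPKM in 20E at 9 h, and 83.3, 74.6 and 78.1 FPKM in uncultured discs. No library of either hormone at 9 h came within the uncultured range. It differed by -1.47 ± 0.09 from uncultured discs in insulin (SE, limma adjusted p = 3.6e-09) and by 0.37 ± 0.09 between insulin and 20E at 9 h (limma adjusted p = 0.0034).

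Porthos (pths, CG9253), a DEAD-box RNA helicase, had the largest difference between the hormones in this group. Its values were 82.0, 67.1 and 79.5 FPKM in insulin at 9 h, 51.6, 42.6 and 48.7 FPKM in 20E at 9 h, and 161, 145 and 157 FPKM in uncultured discs. The 3 groups did not overlap. It was higher by 0.67 ± 0.07 in insulin than in 20E at 9 h (SE, limma adjusted p = 2.8e-06). In 20E at 4 h it had 73.2, 74.3 and 75.3 FPKM, above all 3 libraries of 20E at 9 h.

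Genes already named for ribosome biogenesis, from a list written for this tissue with results of these data known, gave similar counts. Of 24 tested, 16 were higher and 1 lower in insulin than in 20E at 9 h, with a median of 0.30. Against uncultured discs 1 was higher and 22 lower in insulin at 9 h, with a median of -1.03. Fib, the fibrillarin methyltransferase, differed by 0.49 and -1.33 in these comparisons (limma adjusted p = 9.29e-05 and 2.03e-09). The gene called the other way was Non1, with a difference of -0.18 between insulin and 20E and of 1.47 between insulin and uncultured discs (limma adjusted p = 0.0207 and 9.31e-11). Between the hormones 7 were not called. Ns2 was called in neither comparison, with -0.065 and -0.054 (limma adjusted p = 0.233 and 0.287).

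Metabolic enzymes formed a group of 15 members. In insulin at 9 h, 13 were higher and 0 lower than in 20E, with a median difference of 1.01. Against uncultured discs 8 were higher and 4 lower in insulin at 9 h, and 3 higher and 10 lower in 20E at 9 h. Without the libraries high in gut markers these were 6 and 4 in insulin and 3 and 9 in 20E, and the insulin calls lost were Naprt (CG3714), of the NAD salvage pathway, and Acsf2 (CG12512), an acyl-CoA synthetase. Their median level was 34.4 FPKM in insulin at 9 h, 15.3 FPKM in 20E at 9 h and 35.9 FPKM in uncultured discs.

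**Figure D3:**
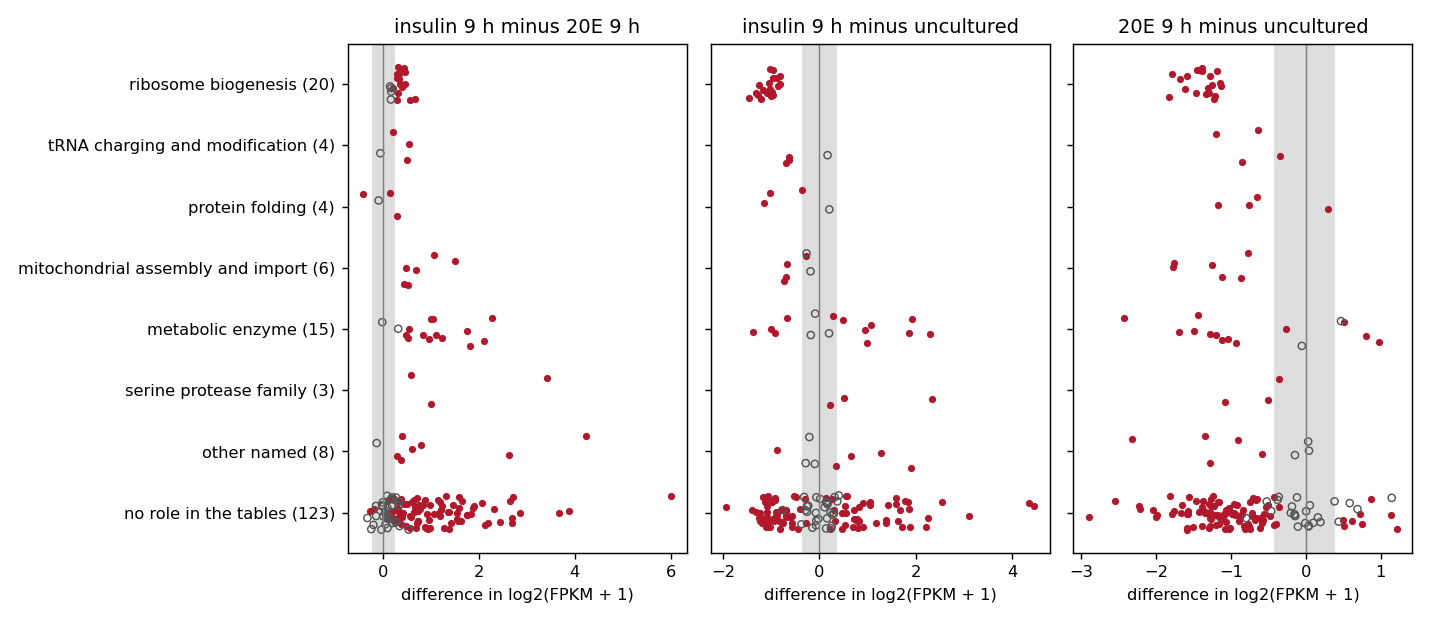
Difference in log2(FPKM + 1) for each of the 183 members, grouped by role (number of members in brackets), for 3 comparisons between groups that did not choose the members. Filled points have a limma adjusted p under 0.05, open points do not, vertical positions within a row are random, and the grey band spans the quartiles of all 8524 tested genes; the 20 ribosome biogenesis members lie right of 0 in the left panel and left of 0 in the other 2.

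Shmt (CG3011), serine hydroxymethyltransferase, feeds one-carbon units into nucleotide synthesis. It stood at 148, 141 and 164 FPKM in insulin at 9 h, at 82.0, 77.3 and 91.3 FPKM in 20E at 9 h and at 168, 155 and 158 FPKM in uncultured discs. Insulin and uncultured libraries overlapped, and both lay above 20E. The difference between the hormones at 9 h was 0.85 ± 0.08 (SE, limma adjusted p = 5.1e-07), and that between insulin and uncultured discs was -0.09 ± 0.08 (limma adjusted p = 0.34). Its exons overlap those of CG12236 on the other strand.

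Pyruvate carboxylase (PCB, CG1516), which makes oxaloacetate from pyruvate, had 32.8, 32.0 and 32.7 FPKM in insulin at 9 h, 8.88, 9.27 and 8.49 FPKM in 20E at 9 h and 43.9, 58.3 and 55.5 FPKM in uncultured discs. It was higher by 1.76 ± 0.11 in insulin than in 20E (SE, limma adjusted p = 9.9e-09) and differed by -0.67 ± 0.11 from uncultured discs (SE, limma adjusted p = 7.6e-05). Insulin thus stood between 20E and fresh discs. The branched-chain amino acid aminotransferase Bcat (CG1673) was instead above both, with 72.0, 71.7 and 67.5 FPKM in insulin at 9 h, 33.8, 35.7 and 33.9 FPKM in 20E at 9 h and 39.0, 34.2 and 34.5 FPKM in uncultured discs. Its difference was 1.01 ± 0.11 against 20E and 0.95 ± 0.11 against uncultured discs (SE, limma adjusted p = 3.1e-06 and 2.2e-06).

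Aldo-keto reductases, which reduce aldehydes and sugars, gave 3 members. CG10863, listed with an AKR synonym, had 76.4, 78.5 and 73.0 FPKM in insulin at 9 h, 11.2, 19.1 and 15.6 FPKM in 20E at 9 h and 37.7, 32.3 and 37.0 FPKM in uncultured discs. Its difference of 2.27 ± 0.20 between the hormones was the largest of the metabolic group (SE, limma adjusted p = 2.9e-07). Akr1B (CG6084) differed by 1.24 ± 0.10 and CG10638 by 1.10 ± 0.12 between the hormones at 9 h (SE, limma adjusted p = 1e-07 and 2.9e-06), and neither was called against uncultured discs in insulin (limma adjusted p = 0.075 and 0.2). Without replicate 2 of insulin at 9 h, Akr1B was called higher than in uncultured discs, by 0.27 (limma adjusted p = 0.035), and with quantile normalization by 0.41 (limma adjusted p = 0.00101).

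Other enzymes of the group were spread more widely. CG9521, listed as a GMC oxidoreductase, stood at 7.12, 9.75 and 8.51 FPKM in insulin at 9 h, 1.70, 1.97 and 1.33 FPKM in 20E at 9 h and 1.04, 0.721 and 1.01 FPKM in uncultured discs, and differed by 2.29 ± 0.22 from fresh discs in insulin (SE, limma adjusted p = 2.8e-07). CG10365, with the synonym Chac1, an enzyme that breaks down glutathione, stood at 7.95, 3.78 and 8.19 FPKM in insulin at 9 h, against 26.5, 15.2 and 13.7 FPKM in insulin at 4 h, and it had the highest insulin ratio at 4 h of all members (2.99). At the other end, CG3961, with the synonym ACSL1, an acyl-CoA synthetase, stood at 1.69, 0.771 and 1.52 FPKM in insulin at 9 h and 5.50, 4.35 and 5.04 FPKM in uncultured discs. Its difference from fresh discs was -1.37 ± 0.17 (SE, limma adjusted p = 5.2e-06).

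Glo1 (CG1707), the glyoxalase that detoxifies methylglyoxal, was the most abundant enzyme among the members. It had 223, 205 and 236 FPKM in insulin at 9 h, 152, 148 and 162 FPKM in 20E at 9 h and 439, 408 and 406 FPKM in uncultured discs, in 3 separate ranges. CG11089, with the synonym atic, an enzyme of purine synthesis, had the same order at lower levels, with differences of 0.49 ± 0.09 against 20E and -1.01 ± 0.09 against uncultured discs (SE, limma adjusted p = 0.00046 and 1.9e-07). Sgsh (CG14291), a lysosomal sulfatase, was the enzyme for which the hormones were closest. It had 55.0, 63.1 and 57.7 FPKM in insulin and 55.7, 59.5 and 61.4 FPKM in 20E at 9 h, against 41.1, 40.0 and 42.7 FPKM in uncultured discs.

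Among named genes of glycolysis, 11 of 11 were higher in insulin than in 20E at 9 h, with a median of 1.19, and 6 were higher and 1 lower than in uncultured discs. Of 10 genes of nucleotide and one-carbon metabolism, 5 were higher and 1 lower in insulin than in 20E. The list of insulin, FOXO and TOR pathway genes gave 3 higher and 8 lower of 17, with a median of -0.22. Amino acid transporters gave 3 higher and 2 lower of 6. Over all tested genes 26.4% were called higher and 26.6% lower between the hormones, and 34.4% and 33.2% for insulin against uncultured discs. These lists were written with results of these data known, and their members were not chosen by the rule.

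Mitochondrial assembly and import gave 6 members, and all 6 were higher in insulin than in 20E at 9 h, with a median of 0.60. Against uncultured discs 0 were higher and 4 lower in insulin, and all 6 were lower in 20E. Hsp10 (CG11267), the small partner of the mitochondrial chaperonin, stood at 279, 229 and 260 FPKM in insulin at 9 h, 118, 118 and 125 FPKM in 20E at 9 h and 396, 423 and 428 FPKM in uncultured discs. Insulin was above 20E by 1.08 ± 0.06 (SE, limma adjusted p = 7.5e-09) and the groups did not overlap.

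The small set of 4 members for tRNA charging and modification had 3 higher in insulin than in 20E at 9 h, among them the seryl-tRNA synthetase SerRS (CG17259). SerRS had 121, 87.5 and 124 FPKM in insulin at 9 h, 77.2, 63.5 and 82.8 FPKM in 20E at 9 h and 184, 161 and 169 FPKM in uncultured discs, a difference of 0.56 ± 0.12 between the hormones (SE, limma adjusted p = 0.0011). The leucyl-tRNA synthetase LeuRS (CG33123) differed by 0.22 ± 0.06 (SE, limma adjusted p = 0.0051). Dtd (CG18643), which removes D-amino acids from tRNA, differed by -0.05 ± 0.26 (limma adjusted p = 0.89).

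The 4 protein folding members went both ways between insulin and 20E at 9 h, with 2 higher, 1 lower and a median of 0.03. EMC2B (CG3678), of the membrane protein complex of the endoplasmic reticulum, and the prefoldin subunit Pfdn6 (CG7770) were higher, by 0.30 ± 0.07 and 0.14 ± 0.05 (SE, limma adjusted p = 0.002 and 0.029). Grp170 (CG2918), a chaperone of the endoplasmic reticulum, had the lowest value of all 183 members in this comparison. It stood at 58.3, 52.0 and 51.7 FPKM in insulin at 9 h, 103, 95.5 and 96.9 FPKM in insulin at 4 h, 77.6, 64.2 and 74.2 FPKM in 20E at 9 h and 120, 120 and 125 FPKM in uncultured discs. Every insulin library at 9 h lay below every 20E library, with a difference of -0.41 ± 0.07 (SE, limma adjusted p = 0.00018). Its 20E ratio at 4 h (0.49) was also the nearest of all members to the limit.

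The other members called lower in insulin than in 20E at 9 h were CG5885 and CG42359, the second named after its values were seen. CG5885 had 120, 118 and 124 FPKM in insulin and 144, 131 and 159 FPKM in 20E at 9 h, a difference of -0.25 ± 0.06 (SE, limma adjusted p = 0.0022). CG42359 had 19.4, 17.1 and 19.1 FPKM in insulin and 21.7, 19.3 and 22.6 FPKM in 20E at 9 h, which overlapped, with a difference of -0.18 ± 0.07 (SE, limma adjusted p = 0.0486). It was not called without the libraries high in gut markers (limma adjusted p = 0.0519), which lie outside this comparison and enter through the shared spread. In 20E at 4 h it had 12.5, 14.0 and 14.4 FPKM, near the 12.3, 12.8 and 14.3 FPKM without hormone. CG30184, CG9752 and CG17219 had differences of -0.32, -0.24 and -0.19 that were not called. CG30184 was called when only the 2 groups were fitted (limma adjusted p = 0.0478).

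The members with the highest differences between the hormones carry no name for a function in the annotation used here, apart from CG9737 and CG15556. CG12164 (FBgn0033158, BDGP6 chromosome 2R, 7311395 to 7313495, plus strand) had the highest difference of all. It stood at 88.4, 75.6 and 85.1 FPKM in insulin at 9 h and at 37.9, 39.9 and 35.3 FPKM in insulin at 4 h. In 20E it stood at 0.372, 0.331 and 0.219 FPKM at 9 h and at 0.457, 0.164 and 0.236 FPKM at 4 h. Without hormone it had 8.24, 13.1 and 8.90 FPKM and in uncultured discs 8.48, 8.32 and 9.35 FPKM. Insulin lay above and 20E below both groups without added hormone, in every library. The difference between insulin and 20E at 9 h was 6.01 ± 0.13 (SE, limma adjusted p = 3.9e-13), and against uncultured discs it was 3.11 ± 0.13 in insulin and -2.89 ± 0.13 in 20E (limma adjusted p = 1e-10 and 9.3e-11).

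CG9737 (FBgn0039758, chromosome 3R, 30241268 to 30243312, minus strand), listed as the serine protease SP5, was likewise highest in insulin and lowest in 20E. It had 11.5, 10.9 and 10.5 FPKM in insulin at 9 h, 0.0664, 0.233 and 0.0454 FPKM in 20E at 9 h, 2.79, 2.81 and 3.26 FPKM without hormone and 1.49, 1.39 and 1.18 FPKM in uncultured discs. The replicates of insulin were close together. Its difference between the hormones was 3.43 ± 0.09 (SE, limma adjusted p = 2.5e-12). The other 2 members of the family, the serine protease homologues SPH66 (CG4998) and SPH198 (CG1632), differed by 1.01 ± 0.21 and 0.59 ± 0.09 (SE, limma adjusted p = 0.0009 and 4.9e-05), and all 3 were called higher in insulin at 9 h than in uncultured discs. Without the libraries high in gut markers, CG9737 alone kept that call, and SPH66 and SPH198 differed by 0.33 and 0.19 (limma adjusted p = 0.17 and 0.105).

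CG15556 (FBgn0039821, chromosome 3R, 31127965 to 31130666, minus strand), now named Ktch, had 30.2, 21 and 26.4 FPKM in insulin at 9 h, 0.483, 0.513 and 0.268 FPKM in 20E at 9 h and 6.96, 4.74 and 6.78 FPKM in uncultured discs. The 3 groups were far apart. Insulin was higher than 20E by 4.23 ± 0.22 (SE, limma adjusted p = 1.7e-09). CG6118 and CG8563 had lower levels, with 7.90, 10.0 and 4.86 FPKM and 8.01, 5.92 and 7.36 FPKM in insulin at 9 h, against 0.0931, 0.219 and 0.122 FPKM and 0.261, 0.230 and 0.268 FPKM in 20E at 9 h. Their differences were 2.86 ± 0.18 and 2.68 ± 0.13 (SE, limma adjusted p = 9.4e-09 and 6.3e-10).

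**Figure D4:**
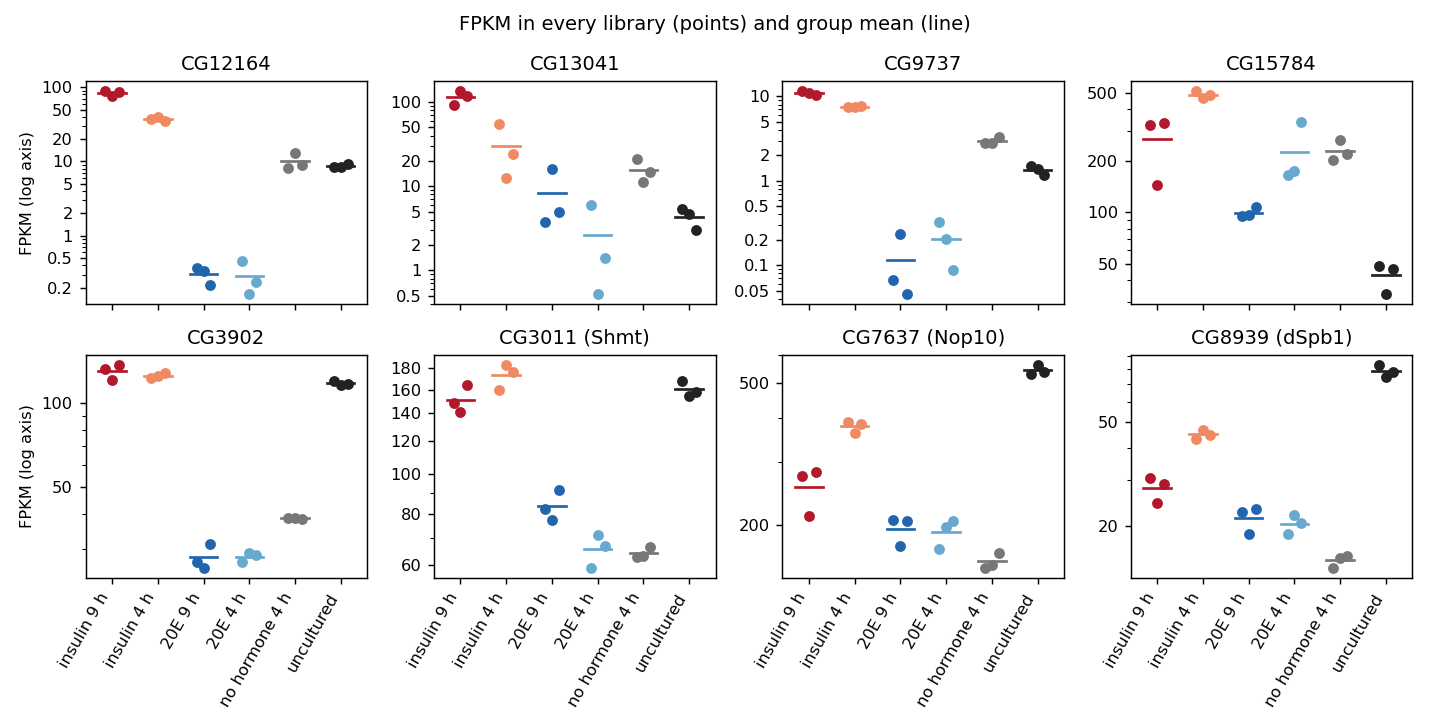
FPKM in each of the 3 libraries of 6 groups (points, log axes that differ between panels) with the group mean (line), for 8 members. CG12164 and CG9737 are highest in insulin and lowest in 20E, CG3902 and Shmt are at about the same level in insulin at 9 h and in uncultured discs, and Nop10 and dSpb1 are highest in uncultured discs.

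CG13041 and CG13060 lie next to each other on chromosome 3L (BDGP6, 16318954 to 16319526, minus strand, and 16319856 to 16320454, plus strand), and both overlap the long non-coding RNA CR45664. CG13041 had 92.8, 135 and 119 FPKM in insulin at 9 h, 54.2, 12.4 and 23.9 FPKM in insulin at 4 h, 3.77, 16 and 4.92 FPKM in 20E at 9 h and 5.35, 4.64 and 2.99 FPKM in uncultured discs. CG13060 had 34.0, 43.6 and 42.0 FPKM in insulin at 9 h, 18.3, 4.49 and 7.68 FPKM in insulin at 4 h, 1.60, 3.60 and 1.74 FPKM in 20E at 9 h and 1.28, 1.00 and 0.715 FPKM in uncultured discs. Both varied several-fold between replicates of insulin at 4 h, with replicate 1 the highest. At 9 h insulin was above 20E by 3.88 ± 0.59 and 3.67 ± 0.39 and above uncultured discs by 4.46 ± 0.59 and 4.35 ± 0.39 (SE, limma adjusted p = 6.6e-05, 2.7e-06, 8.6e-06 and 1.8e-07). Whether the counting used strand is not given in the sources used here, so the shares of the overlapping RNA in these values are uncertain.

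CG13067, also on chromosome 3L (16271282 to 16271918, plus strand), stood at 74.7, 47.5 and 82.1 FPKM in insulin at 9 h, 11.7, 9.14 and 7.47 FPKM in 20E at 9 h and 18.9, 10.5 and 11.4 FPKM in uncultured discs. It was higher in insulin than in 20E by 2.71 ± 0.39 (SE, limma adjusted p = 4.5e-05). CG15784 (FBgn0029766, chromosome X, 5429571 to 5432526, plus strand) was among the 10 members with the highest mean level. It had 323, 144 and 333 FPKM in insulin at 9 h, 511, 466 and 487 FPKM in insulin at 4 h, 95.1, 95.8 and 107 FPKM in 20E at 9 h, 203, 265 and 219 FPKM without hormone and 48.1, 33.2 and 46.8 FPKM in uncultured discs. All cultured groups of CG15784 were thus above fresh discs, 20E at 9 h by 1.21 ± 0.29 and insulin at 9 h by 2.54 ± 0.29 (SE, limma adjusted p = 0.0018 and 2.4e-06).

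CG3902, named after its values were seen, had 133, 121 and 137 FPKM in insulin at 9 h, 26.8, 25.7 and 31.3 FPKM in 20E at 9 h, 38.6, 38.5 and 38.5 FPKM without hormone and 120, 117 and 117 FPKM in uncultured discs. Insulin at 9 h differed by 2.19 ± 0.06 from 20E and by 0.14 ± 0.06 from uncultured discs (SE, limma adjusted p = 2.5e-12 and 0.0499). The call against uncultured discs was lost without the libraries high in gut markers (limma adjusted p = 0.124). On the other side, CG5290 was the member farthest below fresh discs in insulin at 9 h. It had 8.17, 5.64 and 6.96 FPKM in insulin at 9 h, 5.96, 5.31 and 5.27 FPKM in 20E at 9 h and 24.6, 30.4 and 33.0 FPKM in uncultured discs, a difference of -1.94 ± 0.12 in insulin (SE, limma adjusted p = 4.8e-09). Between insulin and 20E it was 0.27 and not called (limma adjusted p = 0.075), but 0.39 and called without replicate 2 of insulin (limma adjusted p = 0.0147). After CG5290 and dSpb1 came CG9752 (-1.40 ± 0.13), CG3961 (given above) and CG8420 (-1.32 ± 0.15). Of the exons of CG5290, some overlap Wdr92 on the other strand.

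Among the 10 members with the highest mean level, 2 more have no role in the annotation. CG17327 had 153, 120 and 171 FPKM in insulin at 9 h, 93.8, 94.6 and 89.5 FPKM in 20E at 9 h and 110, 95.2 and 94.7 FPKM in uncultured discs, so insulin was above both. CG15019 had 129, 102 and 108 FPKM in insulin at 9 h, 95.5, 90.4 and 103 FPKM in 20E at 9 h and 187, 183 and 188 FPKM in uncultured discs. Insulin and 20E overlapped for CG15019, and its difference of 0.23 ± 0.08 (SE, limma adjusted p = 0.024) lost its call in 5 of the alternatives tried. Among these, it was 0.13 without replicate 1 of insulin, 0.22 without replicate 1 of 20E and 0.18 without replicate 2 of 20E.

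Of the named members outside these groups, exp (CG13188) had 25.2, 24.4 and 19.8 FPKM in insulin at 9 h, 2.53, 3.56 and 2.69 FPKM in 20E at 9 h and 8.84, 7.79 and 10.2 FPKM in uncultured discs, a difference between the hormones of 2.62 ± 0.18 (SE, limma adjusted p = 2.6e-08). Cysu (CG5873), a haem peroxidase, differed by 0.79 ± 0.19 (SE, limma adjusted p = 0.0026). Cftr (CG5789), named for the chloride channel of that name in humans, had 13.3, 12.0 and 13.3 FPKM in insulin and 15.2, 12.3 and 15.0 FPKM in 20E at 9 h, a difference of -0.12 ± 0.10 that was not called (limma adjusted p = 0.31).

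Comparisons with the libraries at 4 h are a description, since those libraries chose the members. The choice favours values that are lower at 9 h than at 4 h in insulin and lower without hormone than in fresh discs, so nothing is read from the counts of calls that follow. Between 4 h and 9 h in insulin, 13 members were higher and 107 lower at 9 h, where 21.3% of all tested genes were called higher and 23.3% lower, with a median of -0.41. All 20 ribosome biogenesis members were among the 107. The members farthest above their level at 4 h were CG13041 (2.12), CG13060 (2.06), CG13067 (1.35), CG17108 (1.22) and CG12164 (1.12), of which CG17108 was named after its values were seen.

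In 20E, 18 members were higher and 13 lower at 9 h than at 4 h, and 152 were not called, with 11.2% and 11.7% of all tested genes called. The count of 13 was 8 without replicate 2 of 20E at 4 h, 8 without replicate 3, and 6 when only those groups were fitted. Against uncultured discs, insulin at 4 h had 61 members higher and 64 lower, where 25.8% and 26.7% of all tested genes were called. Without the libraries high in gut markers these were 57 and 64. No hormone at 4 h had 7 higher and 147 lower than uncultured discs, where 35.1% and 35.5% of all tested genes were called. Without those libraries the counts were 7 and 139, and the count of 7 was 4 with a mean of at least 5 FPKM required.

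The members were spread over the genome. On X there were 29, on 2L 30, on 2R 32, on 3L 43, on 3R 48 and on 4 there was 1. On 3L were 23.5% of the members, against 19.8% of all CG-numbered genes that reached the level limit. There were 3 pairs adjacent with no protein-coding gene between them: CG13041 and CG13060, CG10657 and CG10638, and CG11893 and CG31098. In each pair both genes were higher in insulin than in 20E at 9 h. CG11893 and CG31098, named here for their position, differed by 1.47 ± 0.28 and 1.54 ± 0.15 (SE, limma adjusted p = 0.00054 and 8.7e-07), and CG10657, also named for its position, by 1.59 ± 0.18 (limma adjusted p = 5e-06). The exons of 79 members overlap those of another gene in the annotation, and the median longest transcript was 1614.5 nt for members and 1757 nt for all CG-numbered genes that reached the level limit.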

How the data were processed

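The authors deposited 1 table of FPKM per gene and library. Per the submitters' processing notes, cutadapt, TopHat2, Cufflinks and the build BDGP5 were named, with no version, role or order. Whether counting used the strand that the library kit keeps is not given in the sources used here. The table holds no counts, so depth was estimated from steps in low FPKM values after a length correction of 200 nt: between 84.6% and 89.7% of these lay within 0.1 of a whole fragment, against 20% for evenly spread values, and the same values fitted the depth. Near-identical gene copies could not be checked without sequences.

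Groups came from sample titles. The 8524 genes that reached 1 FPKM in 3 or more of 18 libraries were transformed as log2(FPKM + 1), which understates changes of low genes. One linear model with group as its term was fitted with limma 3.58.1 (R 4.3.3, eBayes with trend). Tests were two-sided, adjusted by Benjamini-Hochberg over all tested genes within each comparison, and called at an adjusted p under 0.05. The fit was run on simulated data with independent normal noise, which checks the code and cannot tell whether the calls in these libraries are right. With 3 libraries against 3, the smallest p of an exact permutation test is 0.1, and the calls depend on limma's sharing of spread across genes. Comparisons share libraries and one estimate of spread. Figures were drawn with matplotlib 3.10.9.

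The members, gene lists and naming rule were chosen with earlier results of these data known. Named were the 10 members with the highest mean level, the 8 highest and 5 lowest in insulin minus 20E at 9 h, the 5 highest and 5 lowest in insulin at 9 h minus uncultured, those at the rule's limits, and those with an informative name. All 183 members matched RefSeq by CG number, 36 of them with another current symbol, and 178 matched Ensembl 115 (BDGP6), the source of coordinates. Roles came from RefSeq symbols and synonyms. Promoter motifs were not analysed here. Alternatives tried were another pseudocount, other filters, median-ratio rescaling, quantile normalization, the 2 groups compared alone, the replicate block and leaving out libraries.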

Additional observations from a re-analysis of the deposited data

Results flagged for a closer look

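In 5 of the 8 members with the highest difference between the hormones at 9 h, insulin and 20E stood on opposite sides of fresh discs, with both changes called and the difference between the hormones tested. The uncultured libraries are shared by both changes. A large difference between the hormones, for which the 8 were picked, favours opposite sides, so no share is read from this count. CG12164 differed by 6.01 between the hormones on the log2(FPKM + 1) scale, with 3.11 in insulin and -2.89 in 20E against uncultured discs (limma adjusted p of the difference 3.85e-13). CG15556 differed by 4.23, with 1.91 in insulin and -2.32 in 20E. CG9737 differed by 3.43, with 2.35 in insulin and -1.08 in 20E. CG6118 differed by 2.86, with 1.88 in insulin and -0.98 in 20E. CG8563 differed by 2.68, with 1.59 in insulin and -1.09 in 20E. In each of the 5 all 3 insulin libraries were above and all 3 libraries of 20E below all 3 uncultured ones. All 5 were under 1 FPKM in every library of 20E at 9 h, so the size of these differences rests on the pseudocount.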

How the results depend on the processing

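Single genes were followed in the 3 comparisons between groups that did not choose the members, for genes named for their level or their differences. None of their called differences changed sign under any alternative run. Uncalled differences near 0 could change sign. For CG30184 in 20E at 9 h minus uncultured, 0.002 became -0.038 without the libraries high in gut markers. Insulin above 20E at 9 h was called for 110 to 137 members under other settings, the lowest with a mean of at least 5 FPKM required, and for 125 to 138 when 1 library was left out. Insulin at 9 h above fresh discs ranged over 39 to 58 and below over 81 to 91, and 20E at 9 h below fresh discs over 117 to 142. Counts that moved by over 1.5 times were 20E at 9 h below 20E at 4 h (13), which was 6 when only those groups were fitted and 8 to 14 when 1 library was left out, and no hormone above uncultured (7), which was 4 with a mean of at least 5 FPKM required. Fewer genes or libraries enter those fits. Among the genes named for their level or their differences, 6 calls were lost in these comparisons over all alternatives, and 7 were gained. Of those lost, 5 were of CG15019 and 1 of Nop10 (CG7637), all between the hormones at 9 h. For CG15019 the difference was 0.18 with quantile normalization (limma adjusted p = 0.0772). Genes named only for a role were not in this tally. Some of the calls they lost without the libraries high in gut markers are given above. Libraries with the same replicate number did not deviate together (r between -0.447 and 0.314 over 45 pairs, and 7 of 18 libraries correlated best with their own number). With the replicate block, 137 members were higher and 3 lower in insulin than in 20E at 9 h, 58 higher and 87 lower than fresh discs, and the block moved no count by over 1.5 times.

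The rule itself gave 166 to 199 members with 1 library left out, of which 162 to 182 were among the 183, and 204 with a pseudocount of 0.1, 167 of them shared. FPKM gives levels relative to all transcripts and no total per cell. Depth limits values under about 1 FPKM, where folds rest on the pseudocount. Fitting without the libraries high in gut markers was chosen after seeing the data.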
